A study of Homo sapiens with 4 samples.

Results

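The basal, wound and simple epithelial keratins are 10 genes, taken by gene name from the 58735 genes of the deposited count tables. The basal keratins were KRT5, KRT14 and KRT15, the wound keratins were KRT6A, KRT6B, KRT16 and KRT17, and the simple epithelial keratins were KRT8, KRT18 and KRT19. RNA-seq had been performed on HaCaT cells, an immortalized line of human keratinocytes that the labels spell HaCAT, to ask which transcripts change when the m6A demethylase ALKBH5 is depleted. The 2 siControl libraries came from cells transfected with a normal control siRNA and the 2 siALKBH5 libraries from cells transfected with siRNA against ALKBH5. All 4 carried the genotype label WT and were grown in the same serum-containing medium and transfected with the same lipid reagent. Which ALKBH5 siRNA was used, and how long after transfection the RNA was taken, are not given in the sources used here. The knockdown was partial, in 1 cell line in culture, and nothing states that the libraries of a group came from separate cultures. The p-values thus cover only the spread between these libraries. The test estimated that spread for each gene with help from all genes tested, and not from its 2 libraries per group alone.

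Keratins are the intermediate filament proteins of epithelial cells. A filament is built from heterodimers of an acidic type I keratin (here KRT14, KRT15, KRT16, KRT17, KRT18 and KRT19) and a basic type II keratin (here KRT5, KRT6A, KRT6B and KRT8). KRT5 and KRT14 pair in the basal layer of the epidermis, KRT6A and KRT6B with KRT16 and KRT17 are the keratins switched on in the epidermis at a wound edge, and KRT8 with KRT18 and KRT19 form the filaments of simple epithelia. ALKBH5 removes the N6-methyl mark, m6A, from adenosines in mRNA, and m6A itself was not measured in these libraries.

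The libraries held between 16017502 and 18837807 counts on genes, of which mitochondrial genes took 9.63% to 10.2%, the lower shares being those of siALKBH5. Levels are given as CPM, counts scaled to a common library size by TMM, and groups were compared with the quasi-likelihood test of edgeR, with p-values adjusted over all 15075 genes that passed its expression filter. A gene is said to have risen or fallen where the adjusted p was under 0.05. The targeted gene ALKBH5 was counted 1512 and 1576 times in the control libraries and 956 and 816 times after knockdown, at mean levels of 90.6 and 50.3 CPM. Its log2 fold change was -0.85 (SE 0.05, edgeR adjusted p = 6.4e-15). The 9 keratinocyte markers examined, 2 of which (TP63 and SFN) are in other lists as well, summed to between 5095 and 5143 CPM in the 4 libraries, and among them SFN rose (log2 fold change 0.22) while TP63 (-0.09), ITGA6 (-0.07) and ITGB4 (-0.06) fell. Of 8 mesenchymal and fibroblast markers, VIM, COL1A2 and PDGFRA were listed at 0 counts in every library, and the sum of the list was 25.7 to 26.2 CPM in siControl and 28.8 to 28.9 CPM in siALKBH5. Within it CDH2 rose (log2 fold change 1.47) while DCN (-1.25) and LUM (-1.08) fell. The 4 melanocyte markers summed to 2.72 to 3.22 CPM in siControl and 3.15 to 3.88 CPM in siALKBH5, with TYR at 0 throughout. The 4 endothelial and blood cell markers summed to 13.3 to 14.4 CPM in siControl and 8.18 to 8.98 CPM in siALKBH5, nearly all of it CDH5, which fell (log2 fold change -0.69). The part of these markers in the keratin results was not tested.

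Several of the 10 genes are close copies of each other, which bears on what a count means. The coding sequences of KRT6A and KRT6B were identical at 97.5% of 1692 aligned bases, and that of KRT6A was identical to that of KRT6C, a further type II gene of the same cluster, at 97.9%. KRT14 and KRT16 were identical at 88.7% of their aligned coding bases and KRT14 and KRT17 at 85.2%. To show how far these genes can and cannot be told apart by a read, the 60-base coding window that differs most between the KRT6 genes and the one that differs least between KRT14, KRT16 and KRT17 are printed below on the coding strand (GRCh38, minus strand of the chromosome in each case). Capitals mark bases that differ from the first gene of the set. In exon 2, KRT6A lies at chr12:52491555-52491614, KRT6B at chr12:52450439-52450498 and KRT6C at chr12:52472099-52472158. In exon 1, KRT14 lies at chr17:41586424-41586483, KRT16 at chr17:41612272-41612331 and KRT17 at chr17:41624192-41624251.
KRT6A: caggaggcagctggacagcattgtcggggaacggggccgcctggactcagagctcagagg
KRT6B: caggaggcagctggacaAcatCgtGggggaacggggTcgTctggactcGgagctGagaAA
KRT6C: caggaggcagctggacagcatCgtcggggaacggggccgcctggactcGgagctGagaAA
KRT14: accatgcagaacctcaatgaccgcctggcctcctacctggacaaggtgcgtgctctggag
KRT16: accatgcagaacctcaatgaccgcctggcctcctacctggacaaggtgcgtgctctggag
KRT17: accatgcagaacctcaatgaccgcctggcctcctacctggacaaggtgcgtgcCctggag

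In the first set KRT6B differs from KRT6A at 9 positions and KRT6C at 5. In the second set KRT16 has no difference from KRT14 and KRT17 has 1. Over the main transcript of each gene, 18.2% of the 100-base windows of KRT6A and 24.6% of those of KRT6B also occurred in another gene, chiefly another KRT6 gene. The share was 5.95% for KRT14, 7.18% for KRT16 and 0.35% for KRT17. None of the 100-base windows of KRT15 or KRT19 was shared, and for KRT5 the share was 1.44%. KRT8 shared 7.75% of its windows, in part with its pseudogene KRT8P3, and KRT18 shared 16.6%. KRT18 is the only one of these genes on the plus strand and its exons overlap those of KRT8 by 525 bases on the opposite strand. Whether the counting used strand is not given in the sources used here, so reads from those bases cannot be assigned to KRT8 or KRT18 with certainty.

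Of the 10 keratins, 6 rose, 3 fell and KRT6B had too few counts to be tested. Over all genes tested, 19.3% rose and 17.3% fell, so a change past the test was common in these libraries. In bulk RNA a change in the level per cell and a change in the share of cells that express a gene cannot be told apart. The keratins that rose were KRT5, KRT14, KRT6A, KRT16, KRT8 and KRT18, and those that fell were KRT15, KRT17 and KRT19. All 3 tested type II keratins rose, by log2 fold changes from 0.50 to 0.68, whereas the 6 type I keratins lay between -0.48 and 0.22, with 3 higher and 3 lower. None of the 9 changed by a log2 fold change of 1 or more, a size that 2.92% of all genes tested reached together with the adjusted p. Their median log2 fold change was 0.20, beside -0.01 over all genes tested. In all 9 the levels of the siControl and siALKBH5 libraries did not overlap. Among all genes tested, 32.8% had both siALKBH5 libraries above both siControl libraries and 33.5% had both below.

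**Figure D1:**
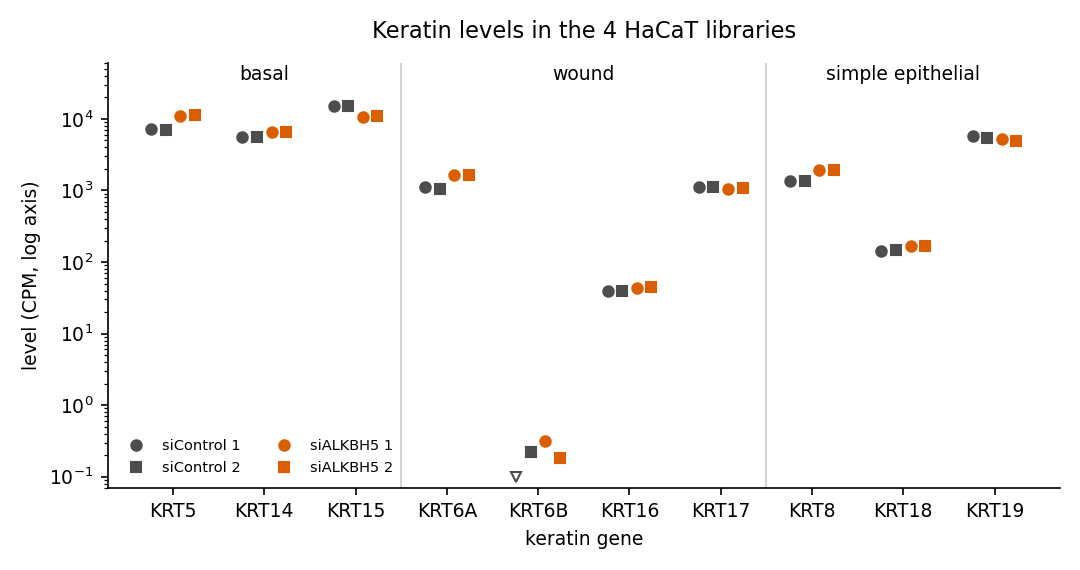
Level of each of the 10 keratins in CPM on a log axis, with 1 point per library (grey, siControl; orange, siALKBH5; circles, replicate 1; squares, replicate 2) and an open triangle for 0 counts. For KRT5, KRT6A and KRT8 the orange points lie visibly above the grey ones, for KRT15 they lie below, and KRT6B stays under 1 CPM in all 4 libraries.

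Among the basal keratins, the type II member KRT5 rose most of the 9 of these 10 genes that were tested. Its partner KRT14 rose less, and KRT15, the alternative type I partner, fell. KRT5 (ENSG00000186081, chromosome 12 from 52514575 to 52520687) is the main type II keratin of dividing keratinocytes. It was at 7152 and 6894 CPM in the siControl libraries and at 11167 and 11296 CPM in the siALKBH5 libraries. Both siALKBH5 libraries were thus well above both siControl libraries, at 160% of the control mean. The group means were 7023 ± 182 CPM (SD, n = 2) and 11231 ± 90.8 CPM (SD, n = 2), and the log2 fold change was 0.68 (SE 0.01, 95% interval 0.65 to 0.71, edgeR adjusted p = 1.4e-27).

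KRT14 (ENSG00000186847, chromosome 17 from 41582279 to 41586921) is the type I keratin that pairs with KRT5. Its level was 5665 and 5561 CPM in siControl and 6604 and 6483 CPM in siALKBH5. The siALKBH5 libraries were the higher pair, though by a smaller margin than for KRT5. The log2 fold change was 0.22 (SE 0.01, edgeR adjusted p = 1.0e-14), or 117% of the control level.

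KRT15 (ENSG00000171346, chromosome 17 from 41513743 to 41522529) is a type I keratin of basal cells, known as a marker of the stem cells of the hair follicle bulge. It was at 14969 and 15112 CPM in siControl and at 10774 and 10816 CPM in siALKBH5. Both siALKBH5 libraries were well below both siControl libraries, and the libraries within a group were nearly level. Its log2 fold change of -0.48 (SE 0.01, 95% interval -0.50 to -0.45, edgeR adjusted p = 3.4e-26) left 71.8% of the control level. Summed over the 3 basal keratins, the level was 27786 and 27568 CPM in siControl and 28545 and 28595 CPM in siALKBH5. In CPM not divided by gene length, the log2 difference was 0.05, so the changes of KRT15, KRT5 and KRT14 came close to cancelling. Divided by the listed gene length, the sum rose, from 6267 and 6182 CPM per kb in siControl to 7021 and 7004 in siALKBH5. Divided by coding length, its means were 18926 and 18858 CPM per kb, so the cancelling depended on the scale.

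Of the wound keratins, KRT6A rose, KRT16 rose slightly and KRT17 fell slightly. KRT6A (ENSG00000205420, chromosome 12 from 52487174 to 52493257) is the type II keratin of activated keratinocytes. Its level was 1102 and 1045 CPM in siControl and 1638 and 1673 CPM in siALKBH5. The groups were far apart, at 1074 ± 40.7 CPM and 1655 ± 24.8 CPM (SD, n = 2 each), and the log2 fold change was 0.63 (SE 0.02, 95% interval 0.58 to 0.67, edgeR adjusted p = 2.7e-22). Adding the counts of KRT6B and KRT6C to those of KRT6A gave a log2 fold change of 0.62. KRT6B had at most 6 counts in a library and KRT6C at most 27, so this sum could hardly change the call. It cannot show how reads that match several KRT6 genes were counted.

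KRT6B (ENSG00000185479, chromosome 12 from 52446651 to 52452126), the near-copy of KRT6A, was counted 0 and 4 times in the siControl libraries and 6 and 3 times after knockdown. At this depth a count of 0 in the siControl library of replicate 1 allows a level of up to 0.187 CPM, which covers counting error only, and no difference was detectable.

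KRT16 (ENSG00000186832, chromosome 17 from 41609778 to 41615899) is the type I keratin usually induced together with KRT6A. Its level was 38.9 and 39.8 CPM in siControl and 43.7 and 45.3 CPM in siALKBH5. Its log2 fold change of 0.18 (SE 0.07, edgeR adjusted p = 0.035) was the weakest call among the 9. That call was lost under DESeq2, with library size scaling alone, with any 1 of the 4 libraries left out, and when the counts of its 6 pseudogenes were added. These pseudogenes took 419 and 464 counts before and 458 and 378 after knockdown, against 628 and 717 and then 817 and 747 for KRT16 itself.

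KRT17 (ENSG00000128422, chromosome 17 from 41619441 to 41624842), a type I keratin of wounded skin and hair follicles, had 1114 and 1115 CPM in siControl and 1046 and 1069 CPM in siALKBH5. The groups did not overlap but lay close together, and the log2 fold change was -0.08 (SE 0.02, edgeR adjusted p = 0.0022). Without the siALKBH5 library of replicate 1 it was -0.06 and no longer passed (edgeR adjusted p = 0.051). The wound keratins together summed to 2256 and 2200 CPM in siControl and 2728 and 2788 CPM in siALKBH5, a log2 difference of 0.31 that came chiefly from KRT6A.

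**Figure D2:**
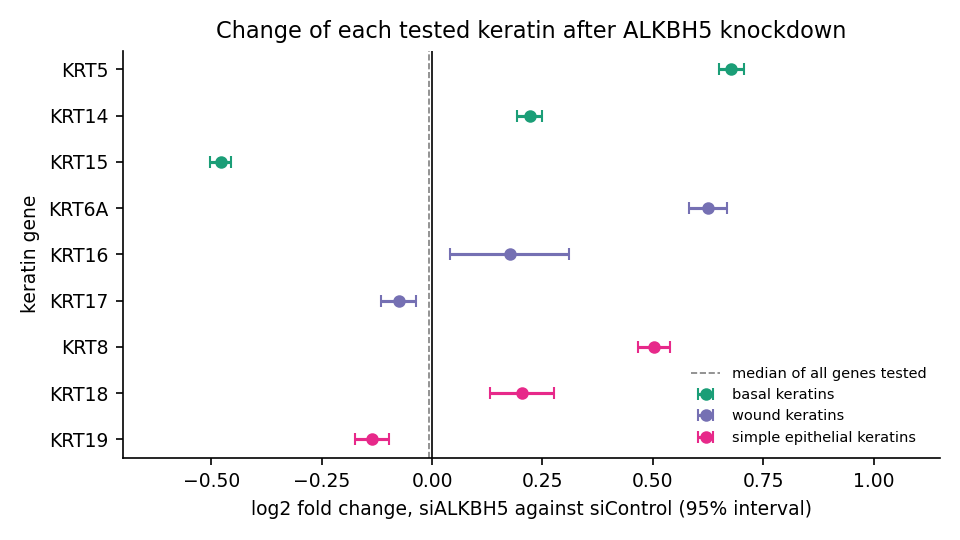
Log2 fold change of the 9 tested keratins, siALKBH5 against siControl, with the 95% interval of the edgeR fit, coloured by role. KRT5, KRT6A and KRT8, the type II keratins, lie between 0.50 and 0.68, and KRT15 at -0.48 is the lowest.

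Among the simple epithelial keratins, the type II member KRT8 rose, KRT18 rose less and KRT19 fell. KRT8 (ENSG00000170421, chromosome 12 from 52897187 to 52949954) is the type II keratin of simple epithelia and of many epithelial lines in culture. It was at 1353 and 1373 CPM in siControl and at 1911 and 1949 CPM in siALKBH5. The higher level held in both siALKBH5 libraries, and the log2 fold change was 0.50 (SE 0.02, 95% interval 0.47 to 0.54, edgeR adjusted p = 1.5e-21), or 142% of the control level.

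KRT18 (ENSG00000111057, chromosome 12 from 52948871 to 52952901) is the type I partner of KRT8. It lies next to KRT8 on chromosome 12, while the other type I members lie on chromosome 17. Its level was 145 and 147 CPM in siControl and 169 and 167 CPM in siALKBH5. Its log2 fold change was 0.20 (SE 0.04, edgeR adjusted p = 2.2e-05), close to that of KRT14. The part that reads from the 525 bases shared with KRT8 have in this value was not tested.

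KRT19 (ENSG00000171345, chromosome 17 from 41523617 to 41528308), the smallest keratin, which lacks most of the tail domain, was at 5720 and 5479 CPM in siControl. In siALKBH5 it was at 5255 and 4936 CPM. The libraries differed within each group, around means of 5599 ± 170 CPM and 5096 ± 226 CPM (SD, n = 2 each). The log2 fold change was -0.14 (SE 0.02, edgeR adjusted p = 7.2e-07), and the adjusted p was 0.057 under DESeq2. The log2 fold change was -0.09 without the siALKBH5 library of replicate 2 and -0.18 without that of replicate 1. The simple epithelial keratins summed to 7218 and 6999 CPM in siControl and 7336 and 7053 CPM in siALKBH5, so the groups overlapped in that sum. Divided by the listed gene length, the sums were 2690 and 2591 CPM per kb in siControl and 2580 and 2448 in siALKBH5, lower and without overlap. Divided by coding length, they were 5813 and 5627 CPM per kb in siControl and 5830 and 5589 in siALKBH5, which overlap.

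To compare levels between genes, CPM were divided by length, which was done on a pair of scales because the listed length, the union of all annotated exons, is far longer than the coding sequence for some keratins. For KRT15 it is 7069 bases against 1368 coding bases, and for KRT8 it is 6881 against 1449. Per kilobase of listed length, KRT14 was the highest of the 10 keratins in siControl at 2461 ± 32.1 CPM per kb (SD, n = 2), under KRT13, one of the other keratins, at 3586 ± 57.5 CPM per kb. KRT19 followed at 2397 ± 72.9 CPM per kb, with libraries at 2448 and 2345 that overlapped those of KRT14 at 2483 and 2438, and then came KRT15 at 2128 ± 14.3 and KRT5 at 1636 ± 42.4. KRT6A at 367 ± 13.9 and KRT17 at 356 ± 0.085 CPM per kb did not differ beyond their spread. The tail of the order was KRT8 at 198, KRT18 at 45.4, KRT16 at 15.9 and KRT6B at 0.0486 CPM per kb. Within the 10 keratins, the order at the top in siALKBH5 was KRT14 at 2869, KRT5 at 2617, KRT19 at 2181 and KRT15 at 1527 CPM per kb, so that KRT5 had moved from the fourth place to the second and KRT15 from the third to the fourth.

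Per kilobase of coding sequence, a scale chosen after the data had been seen, which was computed for the 10 keratins only, KRT15 was the highest of them in both groups, at 10994 CPM per kb in siControl and 7891 in siALKBH5. KRT19 at 4666, KRT5 at 3968 and KRT14 at 3964 CPM per kb came next in siControl. In siALKBH5 the next were KRT5 at 6345, KRT14 at 4621 and KRT19 at 4247 CPM per kb. The position of KRT15 among the keratins thus depended on the length used. The counts divided were those on all exons, coding or not, so the coding scale raises genes with much non-coding sequence. KRT15 has 1368 coding bases in a main transcript of 5237, KRT14 1416 in 1662 and KRT19 1200 in 1390. The first place of KRT15 on this scale is therefore not a measure of its rank in molecules. Dividing by a length cannot change the fold of a single gene between the groups.

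On the scale of listed length, the 10 keratins made up 65.1% ± 0.075 of the summed level of all 54 keratin genes in siControl and 69.7% ± 0.24 in siALKBH5 (SD, n = 2 each). KRT5 alone took 11.2% and 11.0% of that sum in siControl and 17.3% and 17.6% in siALKBH5. KRT14 took 16.7% in each control library and 19.2% and 19.0% after knockdown. The share of KRT15 was 14.2% and 14.6% in siControl and 10.1% and 10.2% in siALKBH5. By role, the basal keratins went from 42.2% ± 0.18 to 46.8% ± 0.16, the wound keratins from 5.00% ± 0.022 to 6.14% ± 0.13 and the simple epithelial keratins from 17.9% ± 0.23 to 16.8% ± 0.53 (SD, n = 2 each). The difference for the simple epithelial keratins, -1.13 percentage points, was -0.75 without the siALKBH5 library of replicate 2 and -1.50 without that of replicate 1. No test was run on these shares. Within the 10 keratins alone and per kilobase of coding sequence, the share of the basal keratins was 72.3% in siControl and 71.5% in siALKBH5, a difference in the other direction. As a share of all counts on genes, the 10 keratins held 3.75% and 3.71% in siControl and 3.83% and 3.81% in siALKBH5.

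**Figure D3:**
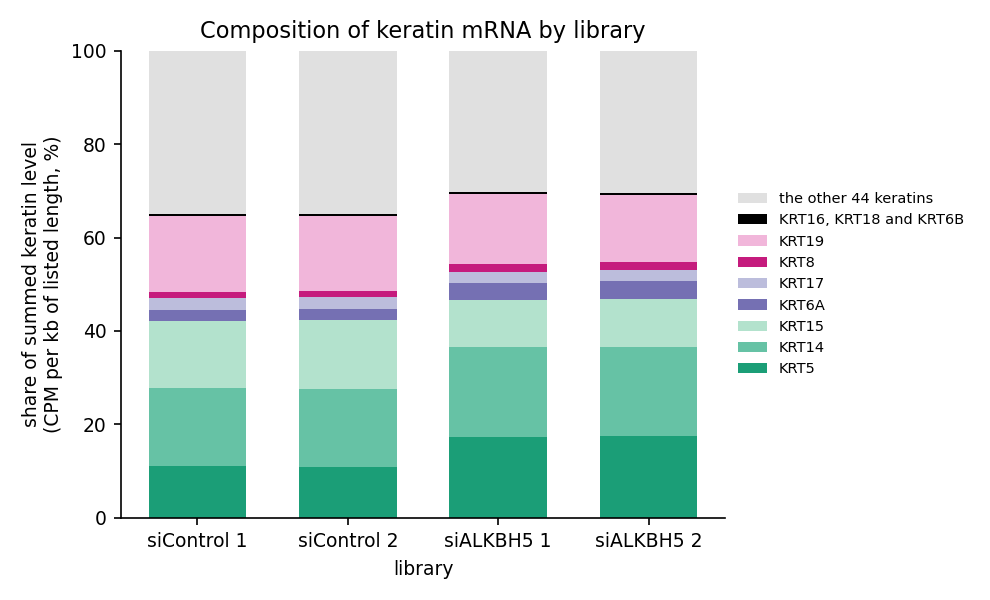
Share of each keratin in the summed level of all 54 keratin genes in each library, in percent, from CPM per kilobase of listed gene length. The KRT5 segment at the base is 11.2% and 11.0% before and 17.3% and 17.6% after knockdown, and the KRT15 segment narrows from 14.2% and 14.6% to 10.1% and 10.2%.

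Because a filament takes its keratins in pairs, the balance of type II and type I mRNA was computed in each library. The ratio of KRT5 to KRT14, per kilobase of listed length, was 0.671 and 0.659 in siControl and 0.899 and 0.926 in siALKBH5. That of KRT5 to KRT15 was 0.787 and 0.751 in siControl and 1.71 and 1.72 in siALKBH5, the widest shift of the ratios computed, with a fold of 2.23. KRT6A to KRT17 went from 1.06 and 1.00 to 1.67 in both siALKBH5 libraries, and KRT6A to KRT16 from 23.9 and 22.2 to 31.7 and 31.2. KRT8 to KRT18 was 4.37 and 4.35 in siControl and 5.28 and 5.46 in siALKBH5, the smallest shift of a type II to type I ratio, with a fold of 1.23. KRT8 to KRT19 was 0.0803 and 0.0851 in siControl and 0.123 and 0.134 in siALKBH5. In each of these ratios both siALKBH5 libraries were above both siControl libraries. Over all 54 keratin genes the type II to type I ratio was 0.324 and 0.323 in siControl and 0.472 and 0.486 in siALKBH5, a fold of 1.48. Over the 10 keratins the fold was 1.67, and it was 1.82 per kilobase of coding sequence. The fold of a ratio of 2 genes does not depend on the length used, but whether the ratio lies above 1 can. Per kilobase of coding sequence, KRT5 to KRT15 was 0.369 and 0.353 in siControl and 0.801 and 0.807 in siALKBH5. On that scale KRT5 to KRT14 was 1.01 and 0.992 in siControl and 1.35 and 1.39 in siALKBH5. KRT6A to KRT17 was 0.758 and 0.718 in siControl and 1.20 in both siALKBH5 libraries.

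**Figure D4:**
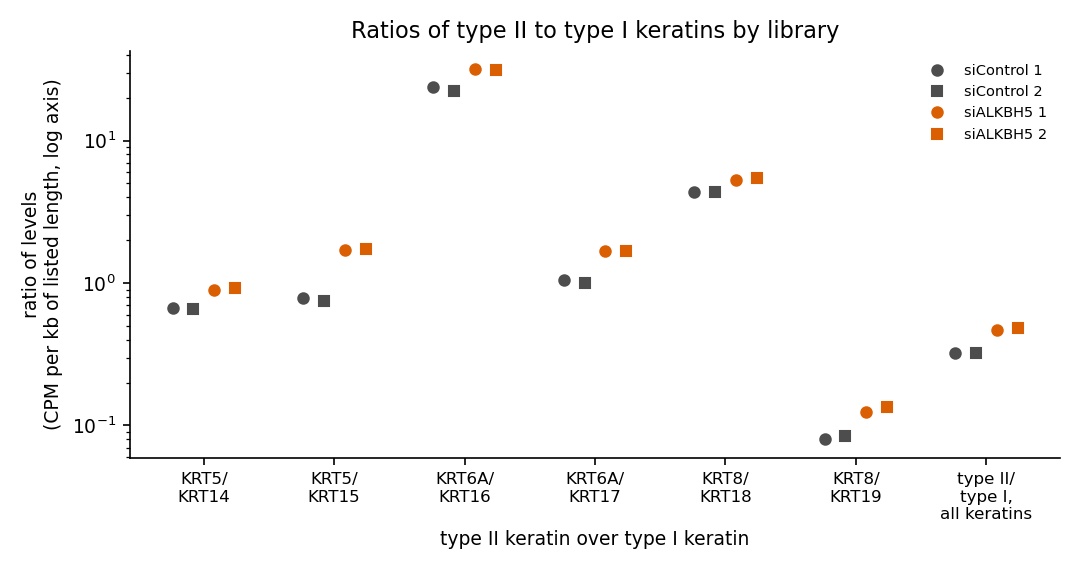
Ratios of type II to type I keratin levels in each library on a log axis, from CPM per kilobase of listed length (grey, siControl; orange, siALKBH5). In every ratio shown the siALKBH5 points lie above the siControl points, from a fold of 1.23 for KRT8 to KRT18 up to 2.23 for KRT5 to KRT15.

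The other 44 keratin genes were examined for the same comparison. Of these, 19 passed the expression filter, 7 rose, 6 fell and 6 did not pass the test, with a median log2 fold change of -0.06. Over all genes tested, 19.3% rose and 17.3% fell. A further 17 had 3 counts or fewer in every library, 11 of them 0 throughout. KRT13, a type I keratin of mucosal epithelia, fell from 10446 ± 168 to 8799 ± 2.30 CPM (SD, n = 2 each), a log2 fold change of -0.25. KRT10, the type I keratin of suprabasal epidermis, fell (log2 fold change -0.29), while its type II partner KRT1 rose (0.27). KRT4, the type II partner of KRT13, fell slightly (-0.06), and KRT7, a type II keratin of simple epithelia, fell (-0.30). KRT80 (0.22), KRT77 (0.58), KRT3 (1.22), KRT81 (0.90), KRT84 (0.96) and KRT78 (1.64), all of type II, rose, from mean siControl levels of 143, 13.9, 13.9, 5.39, 1.89 and 0.331 CPM. KRT23, of type I, fell (-0.87) with 40 and 53 counts in the control libraries and 27 and 25 after knockdown.

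KRT6C, the near-copy of KRT6A and KRT6B, fell (log2 fold change -2.44, SE 0.67, edgeR adjusted p = 0.0013) on few counts, 27 and 16 before and 2 and 6 after knockdown. It moved in the opposite direction to KRT6A, with which it shares most of its sequence, and its call was lost without the siControl library of replicate 1 (edgeR adjusted p = 0.080). The call of KRT4 was lost without the siALKBH5 library of replicate 1 (log2 fold change -0.04). Those of KRT23 and KRT78 were lost without either siALKBH5 library and without the siControl library of replicate 2, where KRT78 stood at 1.03, against 2.57 without the siControl library of replicate 1. KRT23 also lost its call under DESeq2 (adjusted p = 0.11), which gave no adjusted p for KRT6C and KRT78. KRT9, KRT20, KRT32, KRT33A, KRT74 and KRT86 did not pass, with log2 fold changes of 0.20, -0.70, 0.60, -0.26, -0.44 and -0.34. Of the 28 keratins tested in all, 15 are of type II, of which 10 rose and 3 fell with a median log2 fold change of 0.50, and 13 are of type I, of which 3 rose and 6 fell with a median of -0.14. This split by type was drawn up with the values of these libraries known and carries no test. The shares over all genes tested were 19.3% higher and 17.3% lower.

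**Figure D5:**
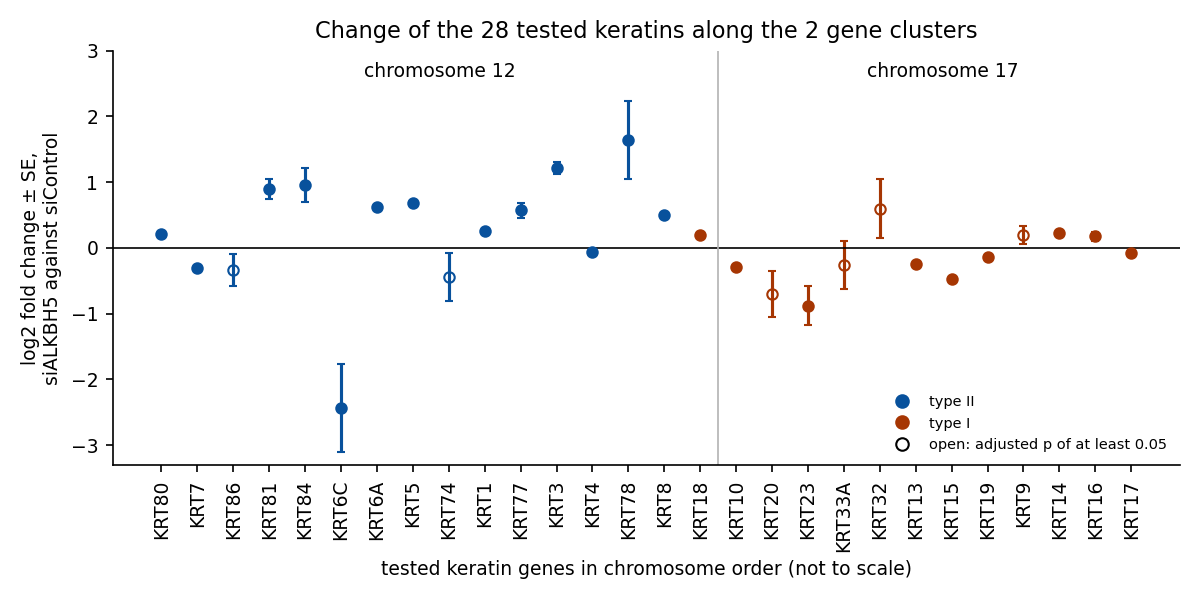
Log2 fold change with its standard error for the 28 tested keratin genes in their order along chromosome 12 and chromosome 17 (blue, type II; brown, type I; open symbols, adjusted p of at least 0.05). Filled blue points lie above 0 at 10 genes and below at KRT7, KRT6C and KRT4, and among the filled brown points KRT18, KRT14 and KRT16 lie above 0.

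The genes of each cluster did not move as blocks. On chromosome 17 KRT15 and KRT19 are neighbours and both fell, as did KRT13 next to them. Beyond KRT9 follow KRT14, KRT16 and KRT17, with log2 fold changes of 0.22, 0.18 and -0.08. On chromosome 12 KRT6C, KRT6A and KRT5 are neighbours among the tested genes, with log2 fold changes of -2.44, 0.63 and 0.68. The value of KRT6C rests on few counts, 27 and 16 in siControl and 2 and 6 in siALKBH5, while KRT6A and KRT5 both rose. KRT80 and KRT7, better counted neighbours on that chromosome, had log2 fold changes of 0.22 and -0.30.

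Of the 14 proteins that bind keratin filaments or anchor them to junctions, all were tested, 10 rose, 1 fell and 3 did not pass, with a median log2 fold change of 0.15. Among all genes tested, 19.3% rose and 17.3% fell. EPPK1, a plakin that binds keratin filaments, rose most, from 15.9 ± 0.17 to 28.9 ± 3.0 CPM (SD, n = 2 each), a log2 fold change of 0.86. PKP2, a plakophilin of the desmosomal plaque, rose by 0.41, PPL, or periplakin, by 0.23, and SFN, the 14-3-3 protein that binds keratins, by 0.22. DSP, or desmoplakin, which ties keratin filaments to desmosomes, rose by 0.19 on the log2 scale, from 1218 ± 0.36 to 1387 ± 17.5 CPM (SD, n = 2 each). The gene that fell was TRADD, an adaptor of death receptors that binds KRT18, with a log2 fold change of -0.14, which is named here after its value was seen. TRADD lost its call under DESeq2 (adjusted p = 0.17), without the siControl library of replicate 1 (log2 fold change -0.11) and without the siALKBH5 library of replicate 2 (-0.09).

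Of 17 transcription factors tied to keratin genes, all were tested, 2 rose, 8 fell and 7 did not pass, with a median log2 fold change of -0.09. Among all genes tested, 19.3% rose and 17.3% fell. FOS, a subunit of AP-1, fell from 16.2 ± 0.35 to 6.83 ± 0.39 CPM, a log2 fold change of -1.24 (SE 0.13, edgeR adjusted p = 1.2e-09). GRHL3, a factor of epidermal differentiation, fell by 0.22, KLF5 by 0.16 and STAT3 by 0.13 on the log2 scale. CEBPB, a factor of the C/EBP family, rose (log2 fold change 0.19). Under DESeq2 1 factor rose and 3 fell, and GRHL3 was among those that no longer passed. DESeq2 called 2054 genes higher and 1444 lower among the 13260 it tested. TP63, the master regulator of the basal keratinocyte, was at 274 ± 6.95 CPM in siControl and 257 ± 3.8 CPM in siALKBH5 (SD, n = 2 each), a log2 fold change of -0.09 (edgeR adjusted p = 0.015) whose call was lost under DESeq2.

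GGACT, a core sequence at which m6A is often placed, was counted in the main transcript of each keratin, on the sense strand. The median over 19373 protein-coding genes was 0.938 matches per kilobase. The main transcript of KRT15 held 5237 bases, of which 1368 were coding, so most of the bases searched were not coding. Those of the other members held 1390 to 2531 bases. Of the keratins that fell, KRT15 held 1.72 per kilobase (9 matches), KRT19 0.719 and KRT17 0.659. Of those that rose, KRT18 held 1.28 per kilobase, KRT16 1.22, KRT6A 0.866, KRT8 0.470, KRT5 0.395 and KRT14 0, and the untested KRT6B held 0.438. Both directions thus had members above and below the median. A match is a description of the letters and not of a methylated site.

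The genes whose pattern over the 4 libraries was most like the summed level of a role were sought among 1805 genes with a mean of at least 100 CPM, by the Euclidean distance of centred log2 CPM. For the basal keratins these were NDUFB10, TPRG1L and PTBP3, at distances of 0.0039, 0.0077 and 0.0092. CORO2A, PSMB5 and SRSF3 were nearest to the wound keratins, at 0.013, 0.014 and 0.014. GTF2F1, ATP6V0E1 and MINK1 were nearest to the simple epithelial keratins, at 0.011, 0.013 and 0.022. With only 4 libraries this ranking describes these libraries alone.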

How the data were processed

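RNA-seq was analysed in 2 siControl and 2 siALKBH5 libraries of HaCaT cells, grouped by the sample labels. The authors deposited 1 table per replicate with raw counts per gene, not normalized, of 1 library of each group. The submitters' processing notes name CASAVA, HISAT2 2.0.5, featureCounts 1.5.0-p3, DESeq2 1.20.0 and the build hg38. The deposited FPKM, scaled by the authors within each table, and the deposited columns that compare 1 library with 1 (log2 fold changes and p-values) were not used. The deposited gene length served for levels per kilobase.

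The counts of all 4 libraries were tested over all genes by the quasi-likelihood method of edgeR 4.0.16 (R 4.3.3; functions filterByExpr, glmQLFit and glmQLFTest, TMM factors, group as the single term), adjusted after Benjamini and Hochberg. SE come from the same quasi-likelihood model. The common biological coefficient of variation was 0.0253. DESeq2 1.42.0 was an alternative, beside other scalings and filters, the replicate number as a block, each library left out in turn and counts of near-identical copies summed. Gene structures and sequences come from GENCODE 29 on GRCh38. Totals of 16017502 to 18837807 counts set the precision, and floors of 3 counts cover counting error only, since reads without molecular identifiers are not independent molecules. Counts of the replicates of a group differed by more than sampling noise (chi-square per degree of freedom 1.71 in siControl and 1.81 in siALKBH5), so they were kept as separate libraries. In a test on simulated data for siALKBH5 against siControl, edgeR recovered 81 of 96 genes changed by 0.5 and 102 of 104 changed by 1 on the log2 scale, with 6 false calls among 15040 genes. The simulation gave every gene the same coefficient of variation, 0.0253, and changed only well-counted genes. It therefore does not measure the rate of false calls in the real libraries, where the spread differs by gene.

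The 10 keratins and the lists were chosen with earlier results of these data known. Named are the 10 keratins, ALKBH5, every other keratin that passed the filter, at most 5 filament binding proteins and 5 transcription factors with an adjusted p under 0.05, a mean of at least 10 CPM and the largest change, and for each role the 3 nearest genes. The cell type markers, TP63 and TRADD were named beyond that rule. 1 gene of the lists is not reported here by name.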

Additional observations from a re-analysis of the deposited data

How the results depend on the processing

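Of 108 values of the tested keratins under alternatives, 99 kept their direction and their side of the threshold, 9 kept the direction but no longer passed, and 0 reversed. The 9 were KRT16 in 7 settings, KRT17 in 1 and KRT19 in 1. Not every one of the 108 values could have changed. Summing copies added 0 counts to KRT5, KRT14, KRT15 and KRT19. A fit with a library left out is not a stricter check, since it leaves 1 library in a group and gave smaller p-values for several keratins. KRT16 had an adjusted p of 0.14 with DESeq2, 0.067 with library size only, 0.35 with copies summed (log2 fold change 0.06) and 0.054 to 0.17 with each library left out. With a log2 fold change of at least 1 required as well, 0 keratins rose and 0 fell. Under DESeq2 the filament binding proteins that fell went from 1 to 0, the transcription factors that rose from 2 to 1 and those that fell from 8 to 3. Over all genes DESeq2 called 2054 higher and 1444 lower, against 2913 and 2610 with edgeR, on 13260 and 15075 genes. The causes were not tested. The difference in the share of the basal keratins, 4.58 percentage points of all keratins per kilobase of listed length, was -0.88 per kilobase of coding sequence within the 10 keratins, and that of the simple epithelial keratins was -0.23 in place of -1.13. The other length and the smaller sum were applied together in that alternative, which was chosen after seeing the data.

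The labels mark replicate 2 by the suffix replicate and hold no numbers. Across genes, the differences between the replicates of siControl and those of siALKBH5 correlated at 0.06. That shows little shared replicate effect and cannot tell whether the libraries were prepared in pairs. With the replicate block 6 keratins rose and 3 fell, and over all genes 3091 rose and 2831 fell, against 2913 and 2610 without it. Leaving out each library in turn left 5 keratins higher and 2 to 3 lower. With 2 libraries per group a library left out leaves 1 whose spread is assumed to be like that of the others. KRT6B, at 6 counts or fewer in each library, could not be compared at this depth.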
